A study of Arabidopsis thaliana with 35 samples.

Results

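Type-A response regulators are the early cytokinin-response genes of Arabidopsis. The 9 genes described here were taken by their AGI identifiers (ARR3 AT1G59940, ARR4 AT1G10470, ARR5 AT3G48100, ARR6 AT5G62920, ARR7 AT1G19050, ARR8 AT2G41310, ARR9 AT3G57040, ARR15 AT1G74890 and ARR16 AT2G40670) out of 27417 genes in the count tables. Of the 9 genes, 8 had enough reads for a test in at least 1 comparison, and 7 of 9 in every comparison. The remaining type-A gene, ARR17, was not among them and had 8 reads in all, in 2 of 35 libraries.

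Cytokinin is perceived by histidine kinase receptors (AHK), which pass phosphate through phosphotransfer proteins (AHP) to nuclear response regulators. Type-B regulators are DNA-binding transcription factors that switch on cytokinin-response genes, and the type-A genes are among their direct targets. Type-A proteins hold a receiver domain but no DNA-binding domain, and act mostly as negative feedback regulators, so that their transcripts are widely used as a readout of cytokinin signalling. In shoots cytokinin is known for maintaining the meristem, driving cell division and delaying leaf senescence.

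The libraries came from shoots of wild-type Col-0 plants that had spent 9 days on MS medium and 5 days on ceramic granular soil. Shoots were taken before pretreatment, or after the pots had stood for 3 days in water (water-treated plants) or in 10 mM ethanol (ethanol-treated plants), once watering had been withheld for 0, 10 or 13 days (days after drought, DAD). Pot weights were adjusted with water before drought began, and the 7 groups held 5 libraries each. No group was kept watered to 10 or 13 DAD, so days without water and plant age cannot be told apart in the steps between times. How many plants or pots a library stood for is not given in the sources used here, so the p-values measure only the spread between these libraries.

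Levels below are normalized counts, that is, read counts divided by 1 factor per library, and they are compared within a gene and never between genes. Fold changes are on the log2 scale with their standard error. A gene was called when its adjusted p was under 0.1 (edgeR quasi-likelihood test over all genes) and its level differed at least 2-fold. The libraries held 3589540 to 13440389 counts. Markers of photosynthetic tissue were abundant in every library, summing in water-treated plants to 425789 to 537630 at 0 DAD and to 16075.5 to 23541.4 at 13 DAD. The 8 root markers together stayed at or below 20.5 in every library. Shoots at 13 DAD of ethanol-treated plants differed widely among themselves, and RD29B, a gene induced by abscisic acid and water loss, stood there at 1426, 4739, 3178, 8921 and 7112 normalized counts in replicates 1 to 5, against 10503.9 to 13144.3 in water-treated plants. From 0 to 10 DAD RD29B was not called in either treatment (log2 fold change 0.21 with water, 0.08 with ethanol). Between 10 and 13 DAD it was called higher in both (5.83 and 4.61).

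The 250 bases upstream of the RefSeq gene start are shown for ARR5, ARR6 and ARR7, which fell over the first 10 days of drought, and for ARR16, which rose (TAIR10.1 genome, gene strand, 5′ to 3′). Capitals mark AGATT, a core sequence that type-B regulators bind, or its reverse complement AATCT, and no other variant was marked.
ARR5: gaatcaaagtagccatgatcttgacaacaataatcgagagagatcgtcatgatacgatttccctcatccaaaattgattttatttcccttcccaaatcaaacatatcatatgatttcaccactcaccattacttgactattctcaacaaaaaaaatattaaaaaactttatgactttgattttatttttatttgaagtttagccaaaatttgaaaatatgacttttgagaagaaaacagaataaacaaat
ARR6: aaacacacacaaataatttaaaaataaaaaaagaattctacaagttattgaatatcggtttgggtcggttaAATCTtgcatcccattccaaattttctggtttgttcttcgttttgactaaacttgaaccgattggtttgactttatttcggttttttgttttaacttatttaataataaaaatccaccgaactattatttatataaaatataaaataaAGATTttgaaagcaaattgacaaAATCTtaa
ARR7: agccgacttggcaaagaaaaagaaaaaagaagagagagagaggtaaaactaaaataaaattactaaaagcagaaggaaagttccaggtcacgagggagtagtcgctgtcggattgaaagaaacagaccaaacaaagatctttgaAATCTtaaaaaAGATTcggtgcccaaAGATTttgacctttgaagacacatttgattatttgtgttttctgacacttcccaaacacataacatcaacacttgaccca
ARR16: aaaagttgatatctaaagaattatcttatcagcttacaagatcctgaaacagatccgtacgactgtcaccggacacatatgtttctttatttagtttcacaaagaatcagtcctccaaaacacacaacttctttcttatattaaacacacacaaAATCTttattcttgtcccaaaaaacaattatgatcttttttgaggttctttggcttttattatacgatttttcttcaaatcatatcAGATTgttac
The windows lie at chr3:17760951-17761200 (minus strand), chr5:25254319-25254568 (minus strand), chr1:6579315-6579564 (minus strand) and chr2:16969423-16969672 (plus strand). ARR5 held no AGATT match in this window, ARR6 and ARR7 held 3 each, and ARR16 held 2. The matches of ARR7 began 106, 95 and 80 bases before the gene start, so all 3 stood within a short stretch, while those of ARR6 began at 179, 31 and 8 bases and those of ARR16 at 96 and 10. Over all 9 genes, 7 held at least 1 match, ARR4 and ARR5 being the exceptions, against 63.6% of 26709 gene-start windows of the same length. AGATCT on either strand, which shares AGAT with the former motif, occurred once in ARR7 and in no other of the 9 genes, against 5.92% of windows. ACGTG, the core of abscisic acid response elements, occurred in ARR9 alone (23.1% of windows), and CCGAC, the core of dehydration-responsive elements, in ARR6 and ARR7 (11.9% of windows). The matches are a description of these windows only.

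The genes fall into pairs of close relatives by sequence: ARR3 with ARR4, ARR5 with ARR6, ARR7 with ARR15, ARR8 with ARR9, and ARR16 with ARR17. Within these pairs the longest matching stretches of the genes were 67.9% to 71.1% identical over 532 to 900 bp. The longest match of ARR9 in the genome was not ARR8 but AT2G07440 (66.8% over 692 bp). No near-identical copy (95% over at least 100 bp) was found for 8 of the 9 genes. The exception was ARR8, of which 239 bp matched AT2G11620 on the same chromosome at 95.8% identity, so its counts could hold reads of that gene. ARR6 overlaps the gene AT5G62910 on the opposite strand by 348 bp, where reads were counted by strand.

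ARR3 and ARR15 were barely detected. ARR3 had no read in 31 of 35 libraries and at most 2 in any other, so the filter on low counts left it out of the main test of every comparison. Fits that kept every gene with at least 1 count held ARR3 where it had reads, and it was not called in them. A count of 0 allows up to 3 reads, which is 1.69 to 5.67 normalized counts in these libraries. ARR15, a target of WUSCHEL in the meristem together with ARR7, had 275 reads in all. Its levels in water-treated plants were 13.9, 7.91, 13.2, 27.9 and 14.4 normalized counts at 0 DAD, 3.51, 6.36, 3.13, 2.098 and 8.08 at 10 DAD and 0, 1.26, 0.852, 0 and 0 at 13 DAD. In ethanol-treated plants they were 27.0, 8.51, 6.22, 5.51 and 4.18, then 14.0, 9.65, 5.75, 7.69 and 0, then 1.34, 6.38, 1.31, 1.08 and 1.31. In water-treated plants the lowest library at 10 DAD (2 reads) stood above the highest at 13 DAD (1 read), both within the 3 reads that a count of 0 allows. Of all genes tested in this step, 27.1% were lower without overlap. In ethanol-treated plants the groups overlapped, with 10 DAD replicate 5 at 0 reads and 13 DAD replicate 2 at 4 reads. The filter on low counts left ARR15 out of both drought steps, so these steps rest on wider fits. From 0 to 10 DAD with water it was called lower when every gene with at least 1 count was kept (-1.72, adjusted p = 0.0153) and when all 7 groups were fitted together (-1.74, adjusted p = 0.0317, edgeR), and with ethanol it was not called in either (-0.42, adjusted p = 0.627, and -0.46, adjusted p = 0.591). The difference of this step between the treatments, tested directly, did not pass (1.28 ± 0.86, adjusted p = 0.723, edgeR). ARR15 also passed the filter in 6 of the 10 fits that left out 1 water library, and was called lower in all 6 (-2.01 to -1.53). These were the fits without a 10 DAD library or without 0 DAD replicate 2. There ARR15 passed the filter only through the 0 DAD group, where its level was high, so the calls are no separate support. From 10 to 13 DAD with water both wider fits called it lower (adjusted p = 0.0324 and 0.0103), on 18 reads against 2 over the 5 libraries of each time, a ratio of 9.7 (95% exact binomial interval 2.32 to 86.2, counting error only). With ethanol there were 42 reads against 10, and it was called lower with all 7 groups (-1.86, adjusted p = 0.0342) but not with every gene of at least 1 count (-1.79, adjusted p = 0.102). The difference of this late step between the treatments passed in neither wider fit (1.19, adjusted p = 0.562, and 1.27, adjusted p = 0.634, edgeR). The 7 other genes had reads in all 35 libraries.

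**Figure D1:**
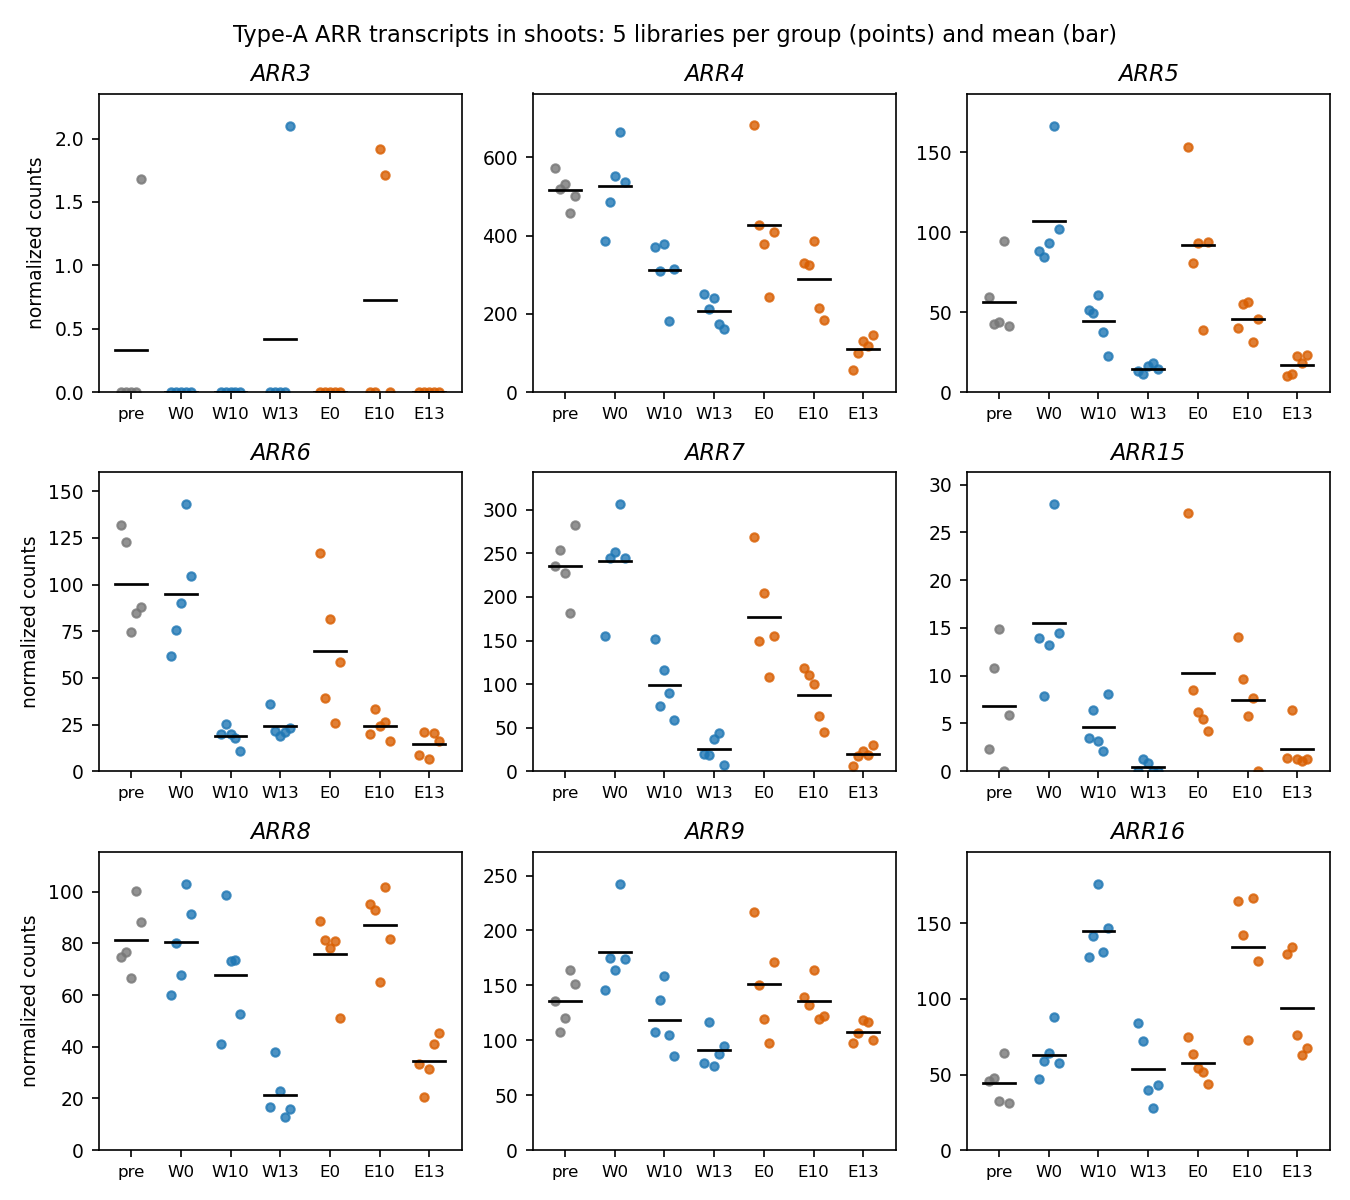
Normalized counts of the 9 type-A genes (vertical axes, linear, each gene on its own scale) in the 7 groups: before pretreatment (pre), water-treated plants at 0, 10 and 13 DAD (W0, W10, W13) and ethanol-treated plants at the same times (E0, E10, E13). Points are libraries in replicate order and bars are group means. The means of ARR4, ARR5, ARR7 and ARR9 step down with drought in both treatments, the libraries of ARR8 overlap between 0 and 10 DAD, and ARR16 peaks at 10 DAD, at means of 145 in water- and 134 in ethanol-treated plants.

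Over the first 10 days of drought in water-treated plants, ARR5, ARR6 and ARR7 fell and ARR16 rose, while ARR8 did not pass the test. Of the 7 genes tested, 3 were called lower and 1 higher; over all 16694 genes tested, 10.6% were called lower and 6.26% higher. The median log2 fold change of the 7 genes was -0.72, against 0.02 over all genes. Shares of cells cannot be separated from levels per cell in these bulk shoots, so fewer cells of a type and less RNA per cell give the same values.

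ARR6 moved most. Its level was 61.9, 75.7, 90.4, 143 and 105 normalized counts in the 5 libraries at 0 DAD and 19.9, 25.4, 19.8, 17.8 and 10.8 at 10 DAD. The groups lay far apart, the lowest library at 0 DAD being above the highest at 10 DAD by more than the whole range at 10 DAD (-2.30 ± 0.26, adjusted p = 1.35e-06). ARR5, whose promoter is the common cytokinin reporter, went from 88.4, 84.7, 93.0, 167 and 102 to 51.5, 49.3, 60.5, 37.8 and 22.9 (-1.21 ± 0.24, adjusted p = 0.000416). Replicate 4 was the highest library at 0 DAD for ARR5 and for every other type-A gene with reads there. For ARR5 it stood apart from the other 4, and the 2 times did not overlap. ARR7, a repressor of cytokinin signalling in the shoot meristem, went from 155, 245, 252, 306 and 245 to 152, 74.7, 116, 90.2 and 59.2 (-1.24 ± 0.23, adjusted p = 0.000428). Here the lowest library at 0 DAD and the highest at 10 DAD nearly met, at 155 and 152.

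ARR16, which acts with ARR17 in the stomatal lineage, moved the other way. Its level was 47.3, 58.8, 64.0, 88.0 and 57.7 normalized counts at 0 DAD and 128, 142, 176, 131 and 147 at 10 DAD, with every library at 10 DAD above every library at 0 DAD (1.24 ± 0.17, adjusted p = 1.03e-05). It was the only one of the 7 genes tested with a positive fold change in this step. ARR4, which also binds phytochrome B, was lower by less than 2-fold, at 387, 486, 551, 666 and 537 against 371, 310.1, 379, 181 and 314 (-0.72 ± 0.18, adjusted p = 0.00418), again without overlap. ARR9 passed the adjusted p alone (-0.56 ± 0.17, adjusted p = 0.0119), and its relative ARR8 did not (-0.21 ± 0.22, adjusted p = 0.463). By the adjusted p alone 5 of the 7 genes were lower and 1 was higher, against 25.2% and 26.2% of all genes. Without overlap between the times, 4 of the 7 genes were lower and 1 was higher, against 17.3% and 13.6% of all genes.

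In ethanol-treated plants the same step gave calls for the same 4 genes. ARR6 had 117, 39.4, 81.8, 25.7 and 58.5 normalized counts at 0 DAD and 20.1, 33.4, 24.0, 26.5 and 16.3 at 10 DAD (-1.41 ± 0.33, adjusted p = 0.00214). ARR16 had 74.6, 63.4, 54.2, 51.4 and 43.5 and then 165, 142, 72.9, 167 and 125 (1.23 ± 0.21, adjusted p = 5.83e-05). Of these groups, those of ARR6 overlapped because replicate 4 was low at 0 DAD, and those of ARR16 overlapped through replicate 3 at 10 DAD. ARR5 went from 153, 80.4, 93.4, 38.5 and 93.6 to 40.1, 54.9, 56.6, 31.6 and 45.5 (-1.02 ± 0.27, adjusted p = 0.00463) and ARR7 from 269, 149, 205, 108 and 155 to 118, 111, 99.7, 63.2 and 45.5 (-1.01 ± 0.28, adjusted p = 0.0126).

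In all, 3 genes were called lower and 1 higher, against 11.8% and 5.74% of the 16918 genes tested. The groups of ARR5 and ARR7 overlapped as well. Without overlap between the times, 0 of the 7 genes were lower and 0 higher, against 17.4% and 14.3% of all genes. ARR5 and ARR7 stood at the 2-fold limit, and scaled by library size only they were at -0.77 each and not called. Without single libraries the log2 fold change of ARR5 ran from -1.18 to -0.76 and was no longer called without ethanol 0 DAD replicate 1 (-0.76) or ethanol 10 DAD replicate 1 (-0.95), 4 (-0.88) or 5 (-0.99); that of ARR7 ran from -1.12 to -0.81 and was no longer called without ethanol 0 DAD replicate 1 (-0.81) or 3 (-0.96) or ethanol 10 DAD replicate 4 (-0.88) or 5 (-0.83). ARR4 (-0.56 ± 0.29, adjusted p = 0.149), ARR8 (0.22 ± 0.18, adjusted p = 0.332) and ARR9 (-0.16 ± 0.17, adjusted p = 0.487) did not pass the adjusted p.

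Between 10 and 13 DAD, ARR5, ARR7 and ARR8 fell in both treatments. The other call in each treatment concerned ARR16 in water-treated and ARR4 in ethanol-treated plants. This step uses the same 10 DAD libraries as the step before it. In water-treated plants 4 of 7 genes were called lower and 0 higher, against 25.6% lower and 17.9% higher over 15856 genes. In ethanol-treated plants 4 of 7 were called lower and 0 higher, against 17.9% lower and 12.9% higher over 16430 genes. The median log2 fold changes of the 7 genes were -1.49 and -1.30, against -0.02 and 0.02 over all genes.

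Of the 7 genes tested, ARR7 showed the deepest drop in both treatments. From the 10 DAD levels given above it went to 19.3, 19.0, 37.5, 43.7 and 7.36 normalized counts in water-treated plants (-2.01 ± 0.36, adjusted p = 8.54e-05) and to 6.03, 17.6, 23.6, 18.4 and 30.1 in ethanol-treated plants (-2.18 ± 0.37, adjusted p = 0.000166). In either treatment every library at 13 DAD was below every library at 10 DAD. This held for 4 of the 7 genes with water and 5 with ethanol, against 27.1% and 20.6% of all genes, and the reverse for 0 genes against 27.9% and 20.1%. ARR5 went to 13.2, 11.4, 16.2, 18.3 and 14.7 (-1.63 ± 0.33, adjusted p = 0.000172) and to 10.0, 11.2, 22.3, 18.4 and 22.9 (-1.41 ± 0.30, adjusted p = 0.00103), also without overlap. Its mean at 13 DAD was 14.8 in water- and 16.97 in ethanol-treated plants, from 107 and 91.8 at 0 DAD.

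ARR8, whose libraries overlapped between 0 and 10 DAD, fell in this step. Its levels in water-treated plants were 41.0, 98.6, 73.1, 73.4 and 52.5 normalized counts at 10 DAD and 16.9, 37.9, 23.0, 12.7 and 15.8 at 13 DAD (-1.71 ± 0.32, adjusted p = 7.68e-05), and the times did not overlap. In ethanol-treated plants they were 95.3, 92.8, 65.2, 102 and 81.7 and 33.5, 20.7, 31.5, 41.1 and 45.2 (-1.30 ± 0.22, adjusted p = 0.000150). ARR9 passed the adjusted p alone in both treatments (-0.44 ± 0.19, adjusted p = 0.0477 with water; -0.32 ± 0.14, adjusted p = 0.0656 with ethanol) and had group means from 90.9 to 180.4. ARR6, already low at 10 DAD, passed in neither treatment (0.31 ± 0.35, adjusted p = 0.441 with water; -0.74 ± 0.37, adjusted p = 0.103 with ethanol).

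The peak of ARR16 at 10 DAD was followed by a fall in water-treated plants, to 84.3, 72.0, 40.0, 28.2 and 43.1 normalized counts (-1.49 ± 0.24, adjusted p = 1.42e-05). All 5 libraries were back below the 10 DAD range, with replicates 1 and 2 the highest. In ethanol-treated plants the level was 130.0, 134, 76.1, 62.7 and 67.5 (-0.51 ± 0.26, adjusted p = 0.113), and replicates 1, 2 and 3 there lay inside the 10 DAD range. ARR4 went to 252, 214, 240.3, 175 and 161 in water-treated plants (-0.63 ± 0.18, adjusted p = 0.00500) and to 56.3, 101, 131, 118 and 145 in ethanol-treated plants (-1.38 ± 0.26, adjusted p = 0.000495). The ethanol libraries lay below all 10 DAD libraries of their treatment, and the water libraries overlapped theirs through replicate 4 at 10 DAD.

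**Figure D2:**
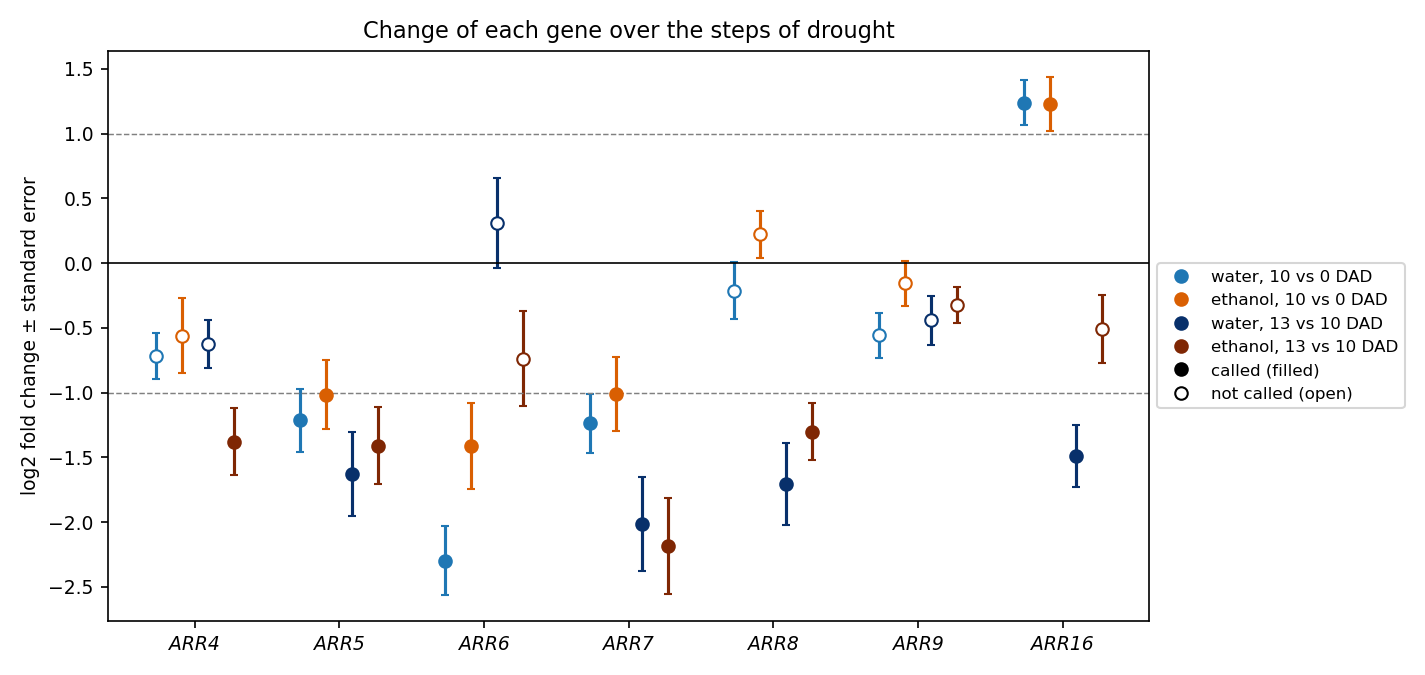
Log2 fold change (vertical axis, bars are standard errors) of the 7 genes tested over 0 to 10 DAD and 10 to 13 DAD in water- and ethanol-treated plants; filled points were called, open points were not, and dashed lines mark 2-fold. ARR16 is the one gene above the upper line in the first step, at 1.24 and 1.23, and ARR7 is lowest in the second, at -2.01 and -2.18.

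Markers of dividing cells moved over the same times. The 5 markers (2 B-type cyclins, KNOLLE and 2 CDKB kinases) of water-treated plants summed to 539.4 to 697.8 at 0 DAD, 40.4 to 127 at 10 DAD and 21.7 to 45.1 at 13 DAD. In ethanol-treated plants the sums were 398 to 619, 85.3 to 104 and 30.3 to 49.5. All 5 were called lower from 0 to 10 DAD in both treatments, and from 10 to 13 DAD 1 of the 2 tested was called lower with water and 2 of the 3 tested with ethanol. The 4 meristem markers summed to 39.5 to 228 over all libraries and CLV3 had no reads in 4 of the 7 groups, and 0 of the 2 meristem markers tested were called over these steps. Of the 5 markers of photosynthetic tissue, RBCS1A was called lower from 0 to 10 DAD with water (-1.13), and RBCS1A (-1.33) and LHCB1.3 (-1.02) with ethanol. Their sums went from the 425789 to 537630 given above to 197825 to 371342 at 10 DAD with water, and from 382980 to 528350 to 157251 to 273151 with ethanol, and all 5 were called lower between 10 and 13 DAD in both treatments. The flower marker SEP1 was called higher from 0 to 10 DAD in both (1.91 with water, 1.57 with ethanol), AP1 was called lower with ethanol (-2.41), and SEP3 was called lower from 10 to 13 DAD with water (-2.15). The 7 flower markers summed to 32.02 to 181 at 0 DAD and 55.6 to 136 at 10 DAD with water, and to 58.8 to 134 and 35.9 to 121 with ethanol. The part of these shifts in the type-A values was not tested.

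The comparison of ethanol- with water-treated plants asks whether the pretreatment alters these transcripts at a given time. At 0 DAD, after 3 days in ethanol, 0 of 8 genes were called, against 0.0696% of 17242 genes called higher and 0.029% lower. All 8 log2 fold changes were negative, from -0.51 to -0.07, and 0 had an unadjusted p under 0.05 (10.8% of all genes). The 5 markers of dividing cells were also all negative (median -0.37), of which CYCB1;2 (-0.37, adjusted p = 0.308) and CDKB2;1 (-0.41, adjusted p = 0.394, edgeR) had an unadjusted p under 0.05 and 0 passed the adjusted p, with the sums at 0 DAD given above; their part in the type-A values was not tested. ARR6 was at 117, 39.4, 81.8, 25.7 and 58.5 normalized counts against 61.9, 75.7, 90.4, 143 and 105 (-0.51 ± 0.35, adjusted p = 0.672), and ARR7 at a mean of 177 ± 61.5 (SD) against 241 ± 54.2 (-0.41 ± 0.22, adjusted p = 0.549). Every gene's libraries overlapped between the treatments, while 1.53% of all genes were higher and 0.998% lower without overlap. Ethanol replicate 1 was the highest and replicate 4 the lowest of its group for ARR4, ARR5, ARR6, ARR7 and ARR9.

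At 10 DAD no difference between the treatments was detected for these genes. Of 7 genes 0 were called and 0 had an unadjusted p under 0.05, against 0.0247% of 16171 genes called higher, 0.0433% called lower and 8.88% with such a p. The log2 fold changes ran from -0.17 for ARR7 to 0.39 for ARR8 (0.39 ± 0.22, adjusted p = 0.629). ARR16, at its peak in both treatments, differed by -0.10 ± 0.19.

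At 13 DAD 0 of 7 genes were called, against 8.79% of 15394 genes called higher and 4.78% lower in ethanol-treated plants. By the adjusted p alone, without the 2-fold limit, ARR4 was lower and ARR8 and ARR16 were higher, against 19.4% of all genes lower and 21.3% higher. ARR4 had 56.3, 101, 131, 118 and 145 normalized counts with ethanol and 252, 214, 240.3, 175 and 161 with water (-0.87 ± 0.22, adjusted p = 0.00637). It was the one gene of the 7 whose libraries did not overlap, as for 13.2% of all genes in that direction and 9.51% in the other. ARR16 had 130.0, 134, 76.1, 62.7 and 67.5 against 84.3, 72.0, 40.0, 28.2 and 43.1 (0.87 ± 0.31, adjusted p = 0.0414). The 2 highest libraries were ethanol replicates 1 and 2, and the other 3 lay inside the water range. ARR8 had 33.5, 20.7, 31.5, 41.1 and 45.2 against 16.9, 37.9, 23.0, 12.7 and 15.8 (0.77 ± 0.33, adjusted p = 0.0884), with water replicates 2 and 3 inside the ethanol range.

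Each of these 3 genes lay close to the 2-fold limit and passed it without 1 library: ARR4 without ethanol 13 DAD replicate 5 (-1.01), ARR8 without water 13 DAD replicate 2 (1.03) and ARR16 without water 13 DAD replicate 1 (1.07). Scaled by library size only, ARR8 (1.04) and ARR16 (1.14) were called. Without ethanol replicates 1 and 3, the libraries with the least RD29B, ARR4 was at -0.72 (adjusted p = 0.00853), ARR8 at 0.83 (adjusted p = 0.130) and ARR16 at 0.74 (adjusted p = 0.119). ARR5 (0.25 ± 0.36, adjusted p = 0.627), ARR6 (-0.69 ± 0.38, adjusted p = 0.180), ARR7 (-0.36 ± 0.47, adjusted p = 0.597) and ARR9 (0.30 ± 0.16, adjusted p = 0.168) did not pass the adjusted p. The 4 positive and 3 negative fold changes had a median of 0.25, against 0.04 over all genes. In the same comparison 3 of 5 photosynthetic markers, both meristem markers tested and 1 of 2 flower markers tested were called higher, with summed levels of 21807.2 to 65608, 128 to 228 and 47.2 to 181 normalized counts in ethanol-treated plants against 16075.5 to 23541.4, 39.5 to 113 and 36.6 to 104 in water-treated plants; their part in the type-A values was not tested.

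**Figure D3:**
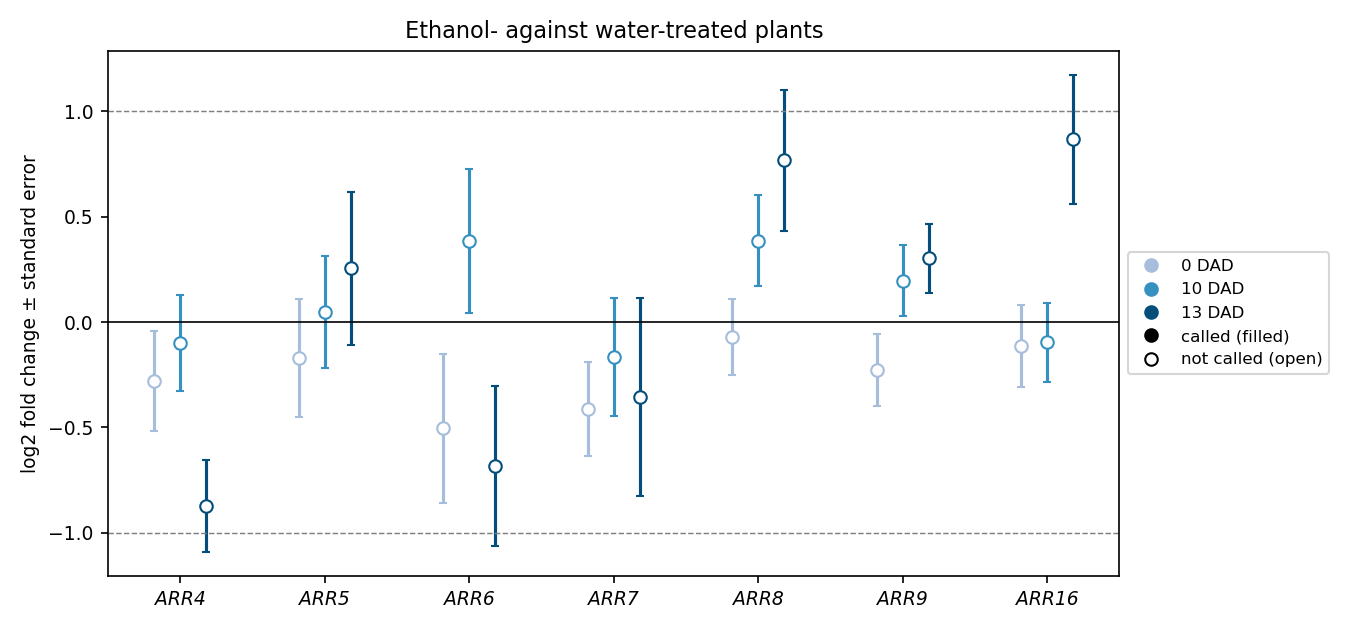
Log2 fold change of ethanol- against water-treated plants (vertical axis, bars are standard errors) for the 7 genes at 0, 10 and 13 DAD; every point is open because none was called, and dashed lines mark 2-fold. The points at 13 DAD spread from -0.87 for ARR4 to 0.87 for ARR16.

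Whether ethanol altered the steps of drought was tested as the difference between the steps of the treatments. For 0 to 10 DAD, 0 of 8 genes were called and 0 had an unadjusted p under 0.05, against 0.0228% of 17531 genes called higher, 0.097% called lower and 8.89% with such a p. The change of ARR6 was -2.30 with water and -1.41 with ethanol, and the difference of 0.91 ± 0.45 did not pass (adjusted p = 0.566). For 10 to 13 DAD, 0 of 7 genes were called, against 8.61% of 17083 genes higher and 4.06% lower. ARR16 passed the adjusted p alone: its change was -1.49 with water and -0.51 with ethanol, a difference of 0.94 ± 0.38, adjusted p = 0.0856, as 13.7% of all genes did in that direction and 10.5% in the other. Without single libraries it ran from 0.76 to 1.17, passing 2-fold without water 13 DAD replicate 1 or 2, ethanol 10 DAD replicate 1 or 4, or ethanol 13 DAD replicate 4 or 5. The differences of ARR4 (-0.79 ± 0.34, adjusted p = 0.113) and ARR6 (-1.08 ± 0.50, adjusted p = 0.136) had unadjusted p-values under 0.05 only, as 3 of the 7 genes and 31% of all genes did with ARR16 counted, and ARR6 was called without ethanol 13 DAD replicate 4 (-1.26).

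The 3 days in water before drought were compared with shoots taken before them. Of 8 genes 0 were called, against 1.02% of 17203 genes higher and 1.34% lower. ARR5 passed the adjusted p alone, going from 59.2, 42.3, 43.9, 94.5 and 41.2 to 88.4, 84.7, 93.0, 167 and 102 normalized counts, just under 2-fold (0.98 ± 0.23, adjusted p = 0.00546), with the groups overlapping through replicate 4 before pretreatment. It also passed the 2-fold limit without replicate 1 or 4 before pretreatment or replicate 1, 2 or 3 at 0 DAD (1.02 to 1.18). ARR9 passed the adjusted p as well (0.42 ± 0.14, adjusted p = 0.0463), which makes 2 of 8 genes higher and 0 lower by that rule, against 8.38% and 11.3% of all genes. All 5 markers of dividing cells had positive fold changes in this comparison (median 0.51), 3 of them passing the adjusted p and 0 called, and they summed to 402 to 497 before pretreatment; their part in the type-A values was not tested. ARR4 (0.02 ± 0.11) and ARR7 (0.02 ± 0.14) had fold changes near 0. ARR15 did not pass (1.05 ± 0.52, adjusted p = 0.196), but was called without replicate 3 before pretreatment (1.49).

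Across the 35 libraries most members varied together and ARR16 did not. The Pearson correlation of log2 CPM between pairs of the 7 genes other than ARR3 and ARR16 ran from 0.48 for ARR6 with ARR8 to 0.92 for ARR4 with ARR7. ARR16 had correlations of -0.47 to 0.23 with them. These libraries share the course of drought, and after the group means were removed the values were 0.70 for ARR4 with ARR7 and 0.71 for ARR5 with ARR9, but 0.03 for ARR7 with ARR8. The genes outside the family whose profile was most like the mean of the members were AT4G01883 (r = 0.931), AT2G46630, AT1G09390 and AT5G48790 (r = 0.929 each) and FED A, a leaf ferredoxin of photosynthetic electron transport (r = 0.928). FED A had mean levels of 36509 normalized counts at 0 DAD and 5247 at 13 DAD in water-treated plants.

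The rest of the cytokinin pathway was followed in a list of 66 genes, from receptors to synthesis, breakdown and transport. In water-treated plants 4 of 40 genes tested were called higher and 6 lower from 0 to 10 DAD (10% and 15%, against 6.26% and 10.6% of all genes), and 7 of 39 higher and 12 lower from 10 to 13 DAD (17.9% and 30.8%, against 17.9% and 25.6%). In the first step AHP4, a phosphotransfer protein, rose by 2.80, LOG7, an enzyme that releases active cytokinin, by 1.54, and CKX4, a cytokinin oxidase, had a log2 fold change of -1.67. UGT76C2, which glucosylates cytokinin, was at -1.62, IPT9, a tRNA-type isopentenyltransferase, at -1.20, and CRF2, a cytokinin response factor, at -1.33, all called lower.

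In the second step the receptor AHK2 fell (-2.29 ± 0.36), as did the type-B regulator ARR14 (-3.10 ± 0.52), the synthesis enzyme IPT3 (-3.05 ± 0.39) and the exporter ABCG14 (-2.66 ± 0.37). KMD1, an F-box protein that directs type-B regulators to degradation, also fell (-3.44 ± 0.24), and so did the oxidase CKX6 (-3.19 ± 0.51). AHP1 (1.43 ± 0.23), LOG5 (1.999 ± 0.36), CRF6 (1.23 ± 0.18) and the glucosyltransferase UGT85A1 (2.87 ± 0.24) rose.

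Between the treatments 0 of 44 pathway genes were called at 0 DAD and 0 of 41 at 10 DAD. By the adjusted p alone, 2 of the 4 KMD F-box genes were higher at 0 DAD and 0 lower, against 0.812% and 0.307% of all genes. Without overlap 2 were higher and 0 lower, against 1.53% and 0.998%. No gene of the other pathway lists met either rule at 0 DAD. At 13 DAD 7 of 36 were called higher and 1 lower in ethanol-treated plants (19.4% and 2.78%, against 8.79% and 4.78% of all genes). These pathway calls were not checked under other processing or with libraries left out. Without ethanol 13 DAD replicates 1 and 3, all genes called higher and lower went from 1353 and 736 to 865 and 659. AHP4 was at 419 ± 31.2 normalized counts (mean ± SD) with ethanol and 148 ± 68.1 with water (1.54 ± 0.31, adjusted p = 0.00324). The type-B regulators ARR10 (1.09 ± 0.28, adjusted p = 0.00744) and ARR11 (1.89 ± 0.54, adjusted p = 0.0134) were higher, but their libraries overlapped between treatments. The oxidases CKX5 (1.57 ± 0.38, adjusted p = 0.00514) and CKX7 (2.47 ± 0.39, adjusted p = 0.000226) were higher without overlap, CKX7 at 64.6 ± 30.8 against 11.8 ± 5.61. Only these 2 of the 7 listed breakdown genes passed the filter on low counts here, so they do not speak for the oxidases as a group. LOG7 (1.26 ± 0.28, adjusted p = 0.00267) and ABCG14, which carries root-made cytokinin towards the shoot (2.22 ± 0.36, adjusted p = 0.000274), were also higher. UGT85A1 was the one gene called lower, at 143 ± 62.0 against 399 ± 163 (-1.43 ± 0.37, adjusted p = 0.0128).

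**Figure D4:**
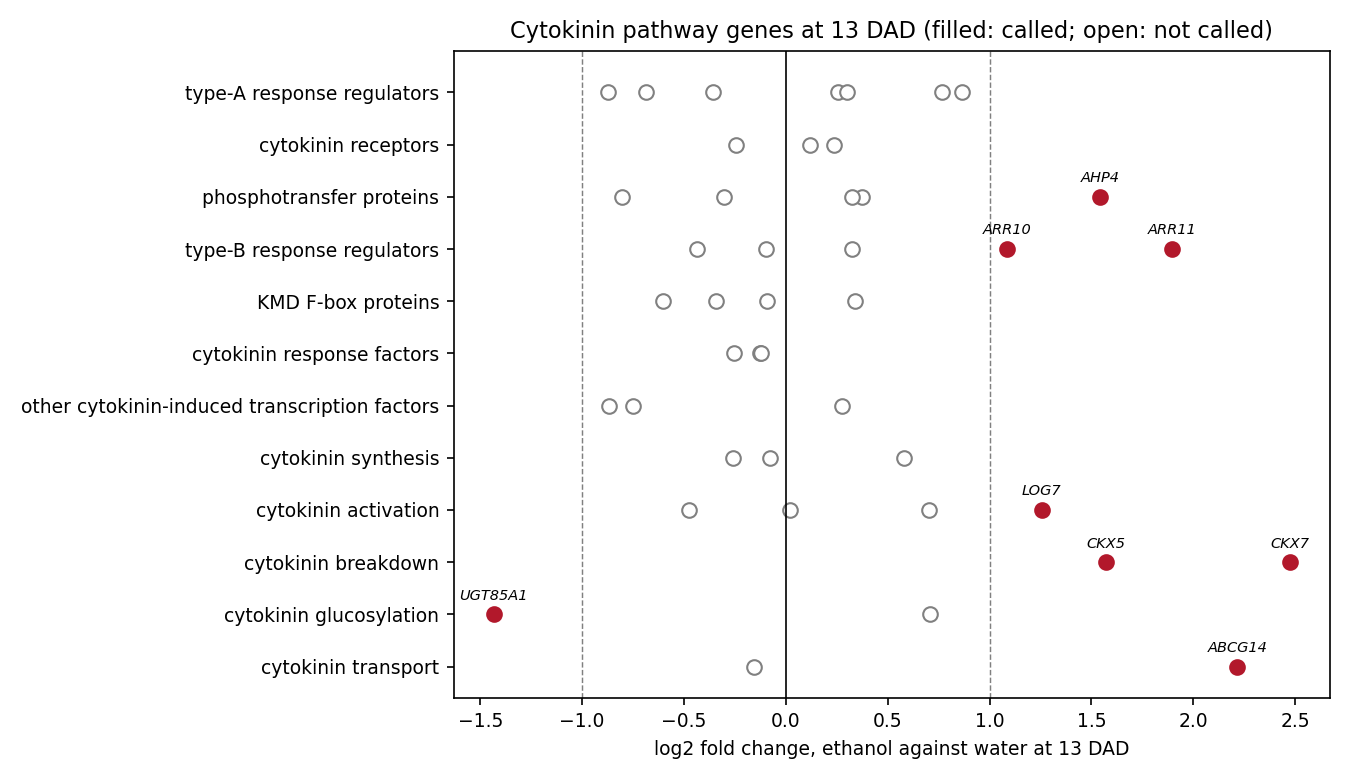
Log2 fold change of ethanol- against water-treated plants at 13 DAD (horizontal axis) for the tested genes of each group of the cytokinin pathway (rows); filled red points were called and are named, open points were not, and dashed lines mark 2-fold. The 7 type-A genes lie between -0.87 and 0.87, and the farthest points are CKX7 at 2.47 and UGT85A1 at -1.43.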

How the data were processed

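The raw counts were made by the authors from R1 reads of Lasy-Seq libraries, trimmed with Trimmomatic, aligned to TAIR10 with HISAT2 and counted by strand per gene with featureCounts; the authors counted a read for each gene it overlapped. The deposited normalized counts are a signal that the authors obtained by dividing the counts by 1 factor per library. The submitters' notes also name DESeq2. The tables held 0 columns without a sample.

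From the raw counts, each comparison was fitted on its own libraries (all 20 for a difference of steps) with R 4.3.3 and edgeR 4.0.16: TMM scaling, genes kept by filterByExpr, robust quasi-likelihood tests, and p-values adjusted by Benjamini-Hochberg over all genes tested. Calls needed an adjusted p under 0.1 together with a change of 1 or more, in size, on the log2 scale. Standard errors were the size of that change over the root of its F statistic. The study's methods name DESeq2 (here 1.42.0), which was used as an alternative, beside RLE factors, library size only, other filters and thresholds, 1 fit of all 7 groups, the replicate number as a block, non-robust dispersion and leaving out each library. The fitting code was tested on simulated data. Leaving out ethanol 13 DAD replicates 1 and 3 together was chosen after seeing the data. The members, lists and tests were chosen with earlier results of these data known.

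All 9 genes were named; a pathway gene was named if called between treatments, or if it had the largest called change of its list in a step of water-treated plants. The genes of most similar pattern were the 5, among genes averaging 20 counts or more, with the highest correlation of log2 CPM (pseudocount 1, TMM) with the mean standardized profile of the 8 members that passed the filter. RefSeq annotation of TAIR10.1 matched 26720 of 27417 gene identifiers; near-identical copies were sought with BLAST 2.17.0. Totals of 3589540 to 13440389 counts limited the low genes: a count of 0 allows up to 3 reads, which covers counting error only. Replicates differed by more than counting noise. Groups were taken from the labels.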

Additional observations from a re-analysis of the deposited data

Results flagged for a closer look

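In 5 of the 55 sets of 5 libraries tested, 1 library lay far from the other 4 by Dixon's ratio (critical value 0.71); chance alone marks about 1 set in 20. ARR5 was at 167 normalized counts in water 0 DAD replicate 4, against 84.7 to 102 in the others. ARR6 was at 36.1 in water 13 DAD replicate 1, against 18.7 to 23.1. ARR8 was at 51.0 in ethanol 0 DAD replicate 5, against 78.2 to 88.5. ARR15 was at 27.0 in ethanol 0 DAD replicate 1, against 4.18 to 8.51, and at 6.38 in ethanol 13 DAD replicate 2, against 1.08 to 1.34, where the counts were 1 to 4 reads.

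The step of ARR16 from 10 to 13 DAD differed between the treatments by the adjusted p alone, by 0.94 on the log2 scale (adjusted p = 0.0856), the step being -1.49 with water and -0.51 with ethanol. Its 3 lowest libraries at 13 DAD with ethanol lay inside the range of water-treated plants, and without ethanol 13 DAD replicates 1 and 3 the difference was 0.82 (adjusted p = 0.200).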

How the results depend on the processing

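Calls of ARR5, ARR7 and ARR8 between 10 and 13 DAD in both treatments, of ARR16 there with water and of ARR4 with ethanol, and of ARR5, ARR6, ARR7 and ARR16 from 0 to 10 DAD with water kept their side of the threshold under every alternative run, as did ARR6 and ARR16 from 0 to 10 DAD with ethanol. Without the 2-fold limit, 2 genes were higher and 1 lower with ethanol at 13 DAD (21.3% and 19.4% of all genes), 5 were lower from 0 to 10 DAD with water (25.2%), 2 were higher after 3 days of water (8.38%), and 1 was higher in the difference of late steps (13.7%). With library size only, which moved the median of all genes from 0.04 to 0.30 at 13 DAD between treatments, to 0.15 and 0.24 from 0 to 10 DAD with water and ethanol, to 0.13 from 10 to 13 DAD with ethanol and to 0.25 in the difference of late steps, 2 genes were called higher at 13 DAD, 1 was higher in the difference of late steps and 1 lower from 0 to 10 DAD with ethanol. All genes with at least 1 count also left 1 lower in that step (2401 of 24335 genes were), and DESeq2 called 1 lower (ARR6) in the difference of late steps (822 of 17083 genes were). The filter of at least 1 count and the fit of all 7 groups added ARR15 to the lower calls with water, 4 in place of 3 from 0 to 10 DAD and 5 in place of 4 from 10 to 13 DAD, and the fit of all 7 groups also from 10 to 13 DAD with ethanol, 5 in place of 4. All genes called lower there were 2222 of 24151 and 2096 of 18185 from 0 to 10 DAD with water. From 10 to 13 DAD they were 5335 of 23823 and 5047 of 18185 with water, and 3503 of 18185 with ethanol. Under library size only, all genes called higher and lower went from 1353 and 736 to 2243 and 457 at 13 DAD between treatments, from 1045 and 1767 to 1414 and 1491 (0 to 10 DAD, water), from 971 and 2000 to 1725 and 1446 (ethanol), and from 1471 and 694 to 2083 and 464 (difference of late steps).

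Leaving out single libraries, the counts of type-A genes called ran from 0 to 1 in each direction at 13 DAD between treatments and for the difference of late steps, from 3 to 4 lower from 0 to 10 DAD with water, from 1 to 3 lower with ethanol, and from 0 to 1 higher after 3 days of water. Shares over all genes are given above for the fits with every library and not for these fits, so these counts show only how the calls depend on 1 library. Signs changed only for uncalled values. By single libraries these were ARR5 (-0.412 to 0.0308), ARR8 (-0.164 to 0.0466) and ARR16 (-0.219 to 0.0184) between treatments at 0 DAD, and ARR4 (-0.246 to 0.0223), ARR5 (-0.112 to 0.191), ARR7 (-0.300 to 0.0445) and ARR16 (-0.19 to 0.0605) at 10 DAD. They were ARR9 from 0 to 10 DAD with ethanol (-0.26 to 0.0040), ARR4 (-0.055 to 0.122), ARR6 (-0.27 to 0.0262), ARR7 (-0.0602 to 0.149) and ARR8 (-0.0843 to 0.0951) after 3 days of water, ARR16 in the early difference (-0.121 to 0.175) and ARR7 (-0.529 to 0.0411) and ARR9 (-0.0435 to 0.165) in the late one. Library size only turned ARR4 (0.0015) and ARR16 (0.0069) at 10 DAD, ARR9 from 0 to 10 DAD with ethanol (0.0880), and ARR4 (-0.00075) and ARR7 (-0.0073) after 3 days of water. ARR8 there was 0.0105 with DESeq2, 0.0097 with RLE and 0.0047 with all groups in one fit. Without ethanol 13 DAD replicates 1 and 3 the late difference of ARR7 was 0.0646. The cause of these shifts was not tested.

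In no comparison did every pair of libraries of the same number deviate together (r over 0.1), so the numbers were not read as pairs. With the replicate block ARR5 from 0 to 10 DAD with ethanol was -0.92 and no longer called, and ARR16 in the early difference was -0.0198; no other call changed. Low counts limit ARR3 and ARR15 most.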
